A study of Chlorocebus sabaeus with 10 samples.

Results

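Plasma carrier proteins are made by hepatocytes and secreted into the blood, where they bind hormones, vitamins, lipids, metals or heme that would otherwise be poorly soluble, be filtered by the kidney or damage tissue. Their genes are among the most heavily transcribed in the liver and are commonly used as markers of hepatocytes. Several of the proteins, among them albumin, transthyretin, retinol binding protein 4 and fetuin-A, are known to fall in plasma during inflammation or undernutrition. The 10 genes followed here were the albumin family (ALB, AFP, AFM and GC), the retinol and thyroid hormone carriers (RBP4, TTR and SERPINA7), AMBP, AHSG and the heme carrier HPX. They were taken by their gene symbols from a table of 23352 gene symbols and 28078 transcripts. Each of the 10 was annotated with 1 transcript, so no choice between transcripts was needed.

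The livers came from female vervet monkeys (Chlorocebus sabaeus), an Old World primate, that were all maintained on chow beforehand and were then fed a high fructose (HFr) diet (n = 5 animals) or kept on chow (n = 5 animals) for 6 weeks. One biopsy library of polyadenylated RNA was sequenced per animal. All of the animals were female, no treatment other than diet was given in the labels, and the number of animals limits the size of difference that can be seen. Total estimated counts per animal lay between 2977282 and 4992505, of which transcripts of the mitochondrial genome took 34.7% to 73.6%, leaving 864571 to 2657103 nuclear counts. Normalized counts below are CPM of the estimated counts after TMM scaling, which sets the libraries to a common effective size, and log2 fold changes are HFr minus chow.

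The liver identity of the samples was checked on 13 hepatocyte markers that are not among the 10 carriers, such as APOA1 and SERPINA1. The list shares FGA, FGB and FGG with the acute phase list and TF with the list of other carriers. All 13 had enough counts to be tested, and their summed normalized counts ranged from 27351 to 39865 in the HFr animals and from 19692 to 42336 in the chow animals. The summed stellate cell and fibroblast markers ranged from 258 to 490 on the HFr diet and from 217 to 914 on chow, and the summed endothelial markers from 312 to 428 and from 242 to 430. Of the 8 stellate cell and fibroblast markers, 7 were tested and ACTA2, which encodes smooth muscle actin, was the 1 with an unadjusted p under 0.05 (log2 fold change -1.57, standard error 0.49, unadjusted p = 0.00646 and adjusted p = 0.9996, edgeR). The macrophage, lymphocyte, cholangiocyte, endothelial and blood cell lists, with 6, 4, 2, 8 and 1 genes tested, held no such gene, and neither did the hepatocyte list.

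No diet difference was detected in any of the plasma carrier transcripts. In the edgeR fit, 0 of the 9 tested carriers passed an unadjusted p of 0.05, against 4.29% of all 7948 tested transcripts (2.06% higher and 2.23% lower on the HFr diet), and 0 passed with DESeq2. AFP, with 2 to 16 estimated counts per animal, had too few counts for this test. Of the 9, 5 had a log2 fold change above 0 and 4 below 0, with a median of 0.044 beside a median of -0.00069 over all tested transcripts. The median size of the difference, regardless of sign, was 0.15 on the log2 scale for the carriers and 0.17 for all transcripts. No carrier separated the HFr animals from the chow animals, while 0.541% of all tested transcripts did so. After Benjamini-Hochberg adjustment over all transcripts the adjusted p of each tested carrier was 0.9996, and 0 of the 7948 transcripts passed 0.05, beside 341 unadjusted and 2 adjusted with DESeq2. A p that misses the threshold does not show that the diets gave the same level, and the 95% intervals below give the differences that these 10 animals leave possible. Because the libraries come from whole biopsies, fewer hepatocytes and less carrier RNA per hepatocyte cannot be told apart.

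**Figure D1:**
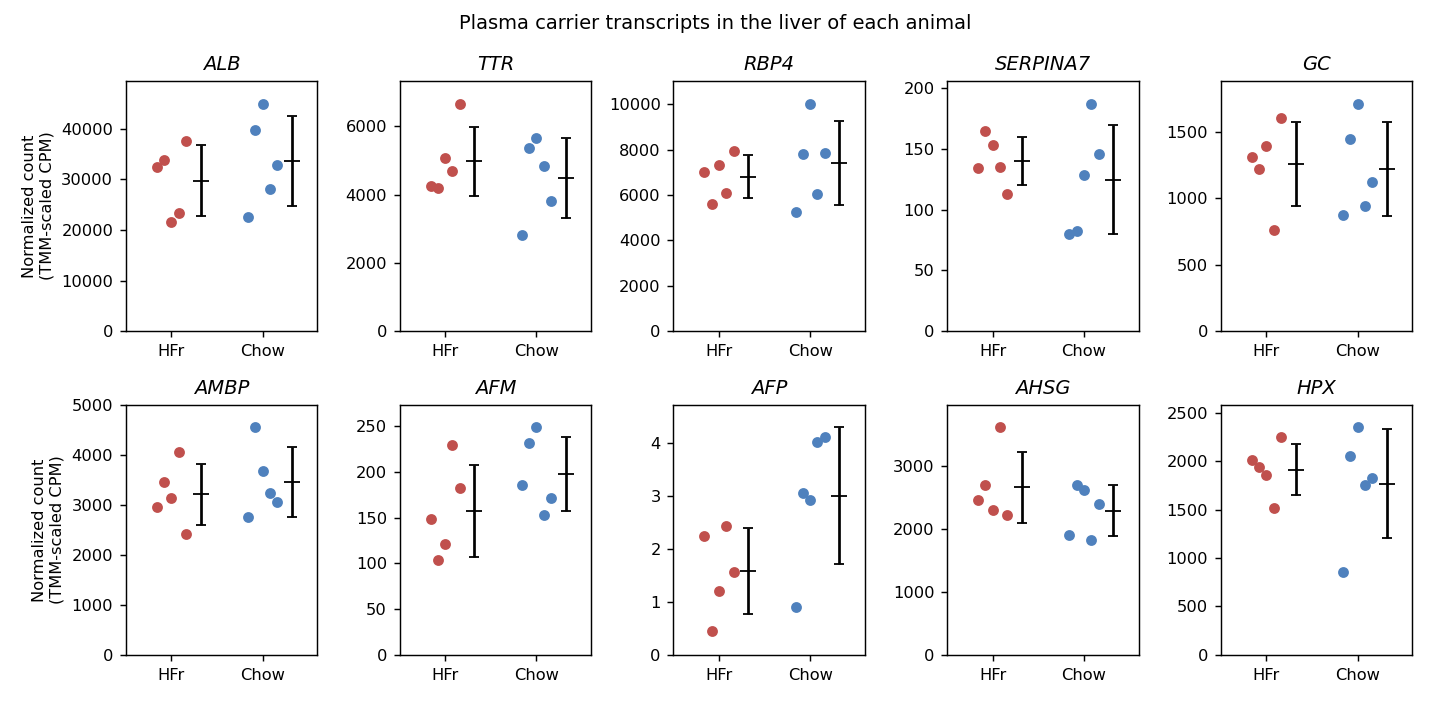
Normalized count (TMM-scaled CPM, linear axis from 0) of the 10 carrier transcripts in each of the 5 HFr and 5 chow animals, with points in order of replicate number from left to right and bars for mean ± SD. The diets overlap for each of the 10 genes, and HPX in chow replicate 1 stands at 852.

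ALB encodes albumin, the main protein of plasma and a carrier of fatty acids, bilirubin, hormones and metal ions. It lies on chromosome 7 of the assembly ChlSab1.1 from 21876132 to 21891407 on the plus strand (ENSCSAG00000004812). Its normalized counts were 32450, 33926, 21503, 23331 and 37564 in HFr replicates 1 to 5 and 22579, 39874, 44968, 28106 and 32805 in chow replicates 1 to 5. The highest values belonged to chow replicates 2 and 3, which were above all HFr animals, and the lowest to HFr replicate 3. The means were 29755 ± 6982 and 33666 ± 8956 (SD, n = 5 each) on HFr and chow, and the log2 fold change was -0.18 (standard error 0.33, 95% interval -0.89 to 0.54). The unadjusted p was 0.601 in the edgeR fit, and an exact two-sided permutation test gave p = 0.484. With each animal left out the log2 fold change ranged from -0.29 (without chow replicate 1) to -0.053 (without chow replicate 3). ALB had the most estimated counts of any nuclear transcript in each of the 10 animals and took 5.11% to 9.29% of the nuclear counts.

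AFP, alpha-fetoprotein, is the albumin of fetal plasma, and its gene is largely silenced in the liver after birth. It starts 13746 bases beyond the end of ALB, from 21905154 to 21924092 on the same strand. The estimated counts were 6, 2, 3, 11 and 8 in HFr replicates 1 to 5 and 4, 14, 16, 8 and 9 in chow replicates 1 to 5. Their sum was 30 for HFr (exact 95% Poisson interval 20.2 to 42.8) and 51 for chow (38.0 to 67.1), intervals that cover counting error only. As normalized counts, AFP ranged from 0.446 to 2.43 on the HFr diet and from 0.908 to 4.11 on chow. Of the chow animals, 4 were above all HFr animals, and chow replicate 1 was the second lowest of the 10. The difference in mean log2(normalized count + 1) was -0.62 (exact two-sided permutation test, p = 0.111, where 0.00794 is the smallest p that 5 animals against 5 allow). Without chow replicate 1 the difference was -0.86 and the exact permutation p was 0.0159, so the side of the threshold rested on that animal. In an edgeR fit with no filter on low counts AFP stood at -0.85 on the log2 scale (standard error 0.50, with an unadjusted p of 0.0992 and an adjusted p of 0.838).

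AFM encodes afamin, a vitamin E binding glycoprotein, and follows AFP on the plus strand from 21950705 to 21972739. ALB, AFP and AFM together span 96608 bases. Normalized counts of AFM were 149, 104, 121, 229.5 and 182 in HFr replicates 1 to 5 and 186, 231, 248, 153 and 172 in chow replicates 1 to 5. Of the HFr animals, 3 lay below all chow animals, while HFr replicate 4 was the third highest of the 10. The means were 157 ± 50.3 and 198 ± 40.3 (SD, n = 5 each). AFM had the largest difference and the smallest p of the 9 tested carriers in this fit, with a log2 fold change of -0.34 (standard error 0.23, 95% interval -0.84 to 0.16, unadjusted p = 0.171 from edgeR). Of all tested transcripts, 21.0% had a larger difference in either direction. Leaving out HFr replicate 4 moved it to -0.52 with an unadjusted p of 0.0348 and an adjusted p of 0.999 from edgeR.

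GC encodes the vitamin D binding protein, which also takes up actin released from damaged cells. It lies 1577866 bases before ALB on the minus strand, from 20253879 to 20298265. Normalized counts were 1313, 1217, 1391, 758 and 1606 in HFr replicates 1 to 5 and 878, 1444, 1710, 941 and 1122 in chow replicates 1 to 5. The lowest value was that of HFr replicate 4 and the highest that of chow replicate 3. The means of 1257 ± 314 and 1219 ± 352 (SD, n = 5 each) gave a log2 fold change of 0.044 (standard error 0.26, 95% interval -0.51 to 0.60), the smallest difference of the tested carriers in this fit, and its sign changed with the library scaling or with the animal left out. Between GC and AFM the annotation holds 11 transcripts in all. Apart from the albumin family, those with counts were ADAMTS3, COX18 and ANKRD17, with at most 72, 171 and 331 estimated counts per animal, beside 1874 to 9390 for GC.

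RBP4 encodes retinol binding protein 4, which carries vitamin A from its liver stores to other tissues. The gene is on chromosome 9 from 86830957 to 86840250, minus strand. Normalized counts were 7034, 5598, 7318, 6089 and 7940 in HFr replicates 1 to 5 and 5237, 7821, 10016, 6051 and 7838 in chow replicates 1 to 5. Chow animals held both the lowest and the highest value, and the HFr animals lay between them. The means were 6796 ± 945 and 7393 ± 1851 (SD, n = 5 each), with a log2 fold change of -0.12 (standard error 0.26, 95% interval -0.68 to 0.44, unadjusted p = 0.650 from edgeR). Leaving out chow replicate 3 turned it to 0.011, so the direction of RBP4 rested on that animal.

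TTR encodes transthyretin, which binds thyroxine and also holds RBP4 in a complex too large to be filtered by the kidney. It lies on chromosome 18 from 49124121 to 49131399, minus strand. Normalized counts were 4246, 4198, 5085, 4686 and 6660 in HFr replicates 1 to 5 and 2819, 5353, 5670, 4837 and 3815 in chow replicates 1 to 5. HFr replicate 5 was above all chow animals, and chow replicates 1 and 5 were below all HFr animals. The log2 fold change was 0.15 (standard error 0.27, 95% interval -0.42 to 0.71, unadjusted p = 0.593 from edgeR), from means of 4975 ± 1009 and 4499 ± 1173 (SD, n = 5 each). It was 0.016 without chow replicate 1 and 0.017 without HFr replicate 5.

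Since RBP4 and TTR circulate as a complex, the ratio of their estimated counts was compared within each library, where scaling between libraries has no effect. The ratio depends also on the lengths of the transcripts, which were not used here, so its absolute size is not a ratio of molecules. It was 1.66, 1.33, 1.44, 1.30 and 1.19 in HFr replicates 1 to 5 and 1.86, 1.46, 1.77, 1.25 and 2.05 in chow replicates 1 to 5. Of the chow animals, 3 were above all HFr animals, and chow replicate 4 was among the lowest of the 10. The mean ratio was 1.38 ± 0.176 with HFr and 1.68 ± 0.321 with chow (SD, n = 5 each). The log2 difference was -0.26 (standard error 0.15, 95% interval -0.61 to 0.08 under equal variances), and the exact two-sided permutation test gave p = 0.111. Without chow replicate 4 the difference was -0.37 and the exact permutation p was 0.0317, whereas without both chow replicates 1 and 3 it was -0.18 (exact permutation p = 0.429).

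**Figure D2:**
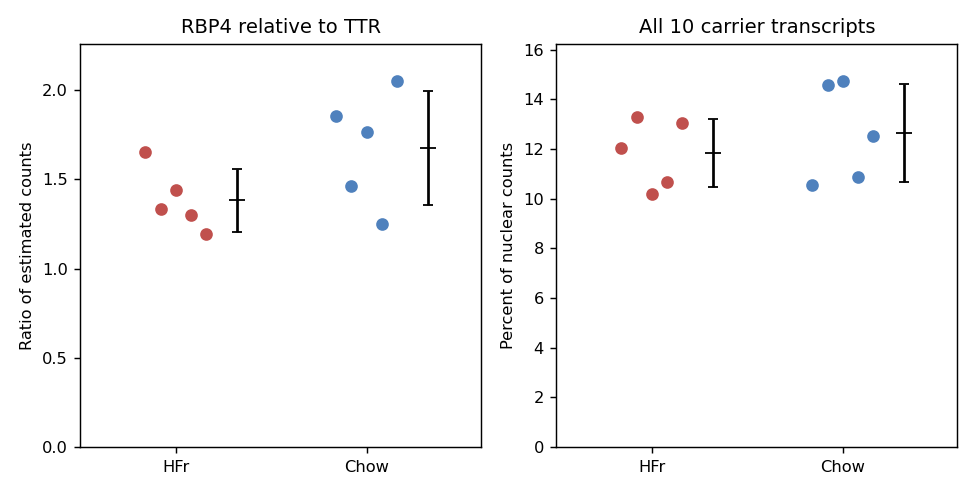
Left, ratio of the estimated counts of RBP4 to those of TTR. Right, summed estimated counts of the 10 carriers as percent of nuclear counts. Points are animals in order of replicate number, bars are mean ± SD (n = 5), and both axes start at 0. The ratio lies between 1.19 and 1.66 on the HFr diet and between 1.25 and 2.05 on chow, and the diets overlap in both plots.

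SERPINA7 encodes thyroxine binding globulin, the carrier with the highest affinity for thyroxine in human plasma and a serpin without inhibitory activity. It is on the X chromosome from 93894788 to 93898738, minus strand. Normalized counts were 135, 165, 153, 135 and 113 in HFr replicates 1 to 5 and 80.1, 82.2, 129, 187 and 146 in chow replicates 1 to 5. Chow replicates 1 and 2 were below all HFr animals and chow replicate 4 was above them. Its coefficient of variation was 14.3% among HFr animals, against 36.2% among chow animals. The log2 fold change was 0.17 (standard error 0.24, 95% interval -0.34 to 0.68, unadjusted p = 0.482 from edgeR), from means of 140 ± 20.02 and 125 ± 45.2 (SD, n = 5 each). It was 0.045 without chow replicate 1, 0.053 without chow replicate 2 and 0.35 without chow replicate 4, and 0.018 when chow replicates 1 and 3 were both left out.

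AMBP encodes a precursor that is cleaved into alpha-1-microglobulin, a heme and radical scavenger, and bikunin, the light chain of the inter-alpha-trypsin inhibitors. It lies on chromosome 12 from 25508682 to 25527016, plus strand. Normalized counts were 2961, 3466, 3143, 4065 and 2411 in HFr replicates 1 to 5 and 2754, 4547, 3681, 3243 and 3059 in chow replicates 1 to 5. The highest was chow replicate 2 and the lowest HFr replicate 5. The means were 3209 ± 613 and 3457 ± 696 (SD, n = 5 each), and the log2 fold change was -0.11 (standard error 0.24, 95% interval -0.62 to 0.41, unadjusted p = 0.661 from edgeR). It was 0.012 without chow replicate 2. The heavy chains that bikunin is joined to were also measured. All 5 listed chain genes were tested and 0 passed an unadjusted p of 0.05 in edgeR, with ITIH2 at -0.17 (standard error 0.21) and ITIH4 at 0.17 (standard error 0.26) on the log2 scale.

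AHSG encodes fetuin-A, which keeps calcium phosphate in solution and inhibits the insulin receptor in cell assays. It is on chromosome 15 from 2809028 to 2817514, minus strand. Normalized counts were 2460, 2701, 2310, 3616 and 2228 in HFr replicates 1 to 5 and 1904, 2703, 2624, 1831 and 2403 in chow replicates 1 to 5. HFr replicate 4 was above all other animals, and chow replicates 1 and 4 were below all HFr animals. AHSG had the largest difference above 0 of the tested carriers in this fit, with means of 2663 ± 562 and 2293 ± 405 (SD, n = 5 each) and a log2 fold change of 0.22 (standard error 0.23, 95% interval -0.28 to 0.71, unadjusted p = 0.366 from edgeR). Without HFr replicate 4 this was 0.074.

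HPX encodes hemopexin, which binds free heme in plasma and delivers it to the liver through the receptor LRP1. The gene is on chromosome 1 from 58386190 to 58396298, plus strand. Normalized counts were 2007, 1944, 1855, 1515 and 2245 in HFr replicates 1 to 5 and 852, 2051, 2348, 1752 and 1830 in chow replicates 1 to 5. Chow replicate 1 lay well below the other 9 animals, which stayed between 1515 and 2348. The means were 1913 ± 266 and 1767 ± 561 (SD, n = 5 each), and the log2 fold change was 0.12 (standard error 0.26, 95% interval -0.45 to 0.68, unadjusted p = 0.670 from edgeR). Leaving out chow replicate 1 turned it to -0.061, so the direction rested on that animal.

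**Figure D3:**
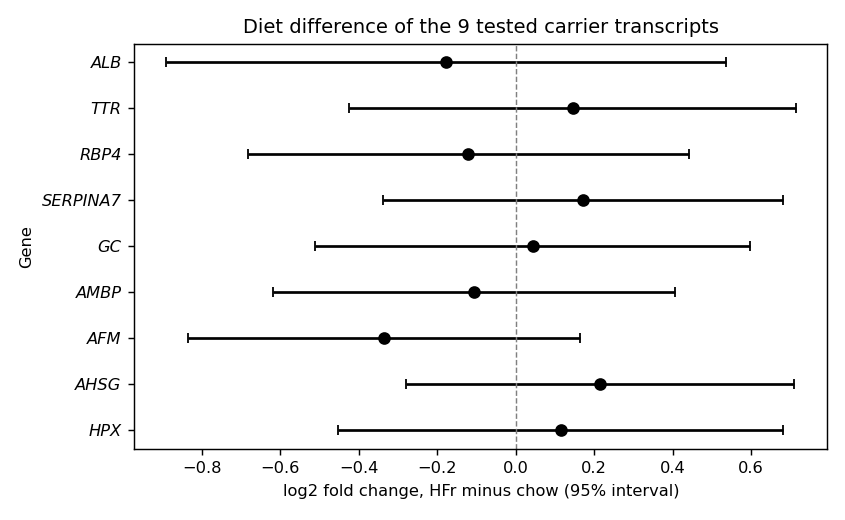
Log2 fold change, HFr minus chow, of the 9 tested carrier transcripts (points) with 95% intervals from edgeR's quasi-likelihood fit (bars), and a dashed line at no difference. All 9 intervals hold 0, and they reach from -0.89 for ALB to 0.71 for TTR and AHSG.

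As fold changes, the 95% intervals reached down to 0.539 of the chow level for ALB and up to 1.64 times the chow level for TTR and AHSG. The interval of AFM reached from 0.560 to 1.12. The standard errors of the 9 carriers lay between 0.23 and 0.33 on the log2 scale. Within diet groups, the coefficient of variation of a carrier, pooled over the diets, was 19.7% to 26.9% with a median of 23.9%. The median was 24.9% for the 426 tested transcripts whose mean normalized count was at least that of the lowest tested carrier. It was 27.2% for all tested transcripts.

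Together the 10 carriers took 10.2% to 13.3% of the nuclear counts in the HFr animals (mean 11.8% ± 1.38, SD, n = 5) and 10.6% to 14.8% in the chow animals (mean 12.6% ± 1.98, SD, n = 5). Of all counts, mitochondrial ones included, they took 3.28% to 7.73% and 2.87% to 9.51%. ALB made up 50.1% and 52.5% of the carrier counts in HFr replicates 3 and 4 and 59.7% to 63.6% in the other 8 animals. In both of these HFr animals the ALB level was low (21503 and 23331 normalized counts), but so was that of chow replicate 1 (22579). TTR and RBP4 were within the range of the other HFr animals. In HFr replicate 4, however, GC was the lowest (758) and AHSG the highest (3616) of the 10 animals. Relative to ALB within each library, the 9 other carriers all overlapped between the diets. The log2 difference in this ratio was above 0 for TTR (0.34), RBP4 (0.073), SERPINA7 (0.40), GC (0.22), AMBP (0.063), AHSG (0.38) and HPX (0.35) and below 0 for AFM (-0.20) and AFP (-0.80). The number of HFr animals above the chow mean was 5 of 5 for HPX, 4 for SERPINA7 and AHSG, 3 for TTR and GC, 2 for RBP4 and AMBP and 1 for AFM and AFP. These 9 ratios share ALB, which was low in HFr replicates 3 and 4, and were not tested.

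**Figure D4:**
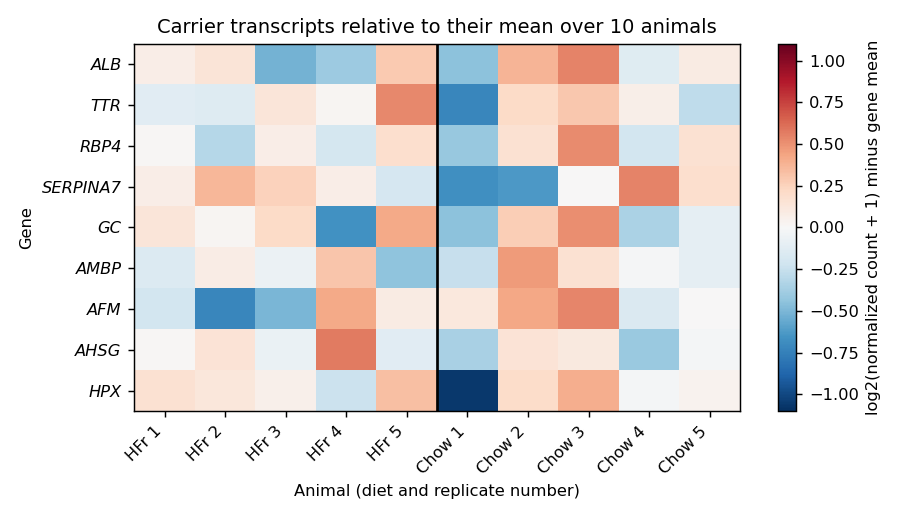
Log2(normalized count + 1) of the 9 tested carriers in each animal minus the gene's mean over the 10 animals, in red where higher and in blue where lower, with HFr animals left of the line and chow animals right of it. Chow replicate 1 is below the mean for 8 of 9 carriers and chow replicate 3 for 0 of 9.

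The highest of the 10 animals exceeded the lowest by 1.89-fold for AMBP to 2.76-fold for HPX among the tested carriers. The fitted fold changes between diets lay between 0.792 for AFM and 1.16 for AHSG. A ratio of the highest to the lowest animal cannot be smaller than a ratio of group means. These values therefore do not weigh the animals against the diet. Averaged over the 9 tested carriers, the log2 level relative to each gene's mean was between -0.047 and 0.12 in the HFr animals and between -0.47 and 0.34 in the chow animals. Chow replicate 1 was the lowest at -0.47 and held the lowest value of the 10 animals for 4 carriers, TTR, RBP4, SERPINA7 and HPX. Chow replicate 3 was the highest at 0.34 and held the highest value for 5, ALB, RBP4, GC, AFM and HPX. Of the 9 carriers, 7 had a smaller coefficient of variation on the HFr diet than on chow. The same share over all tested transcripts was not computed, and the carriers share these animals, so the count is not a result about the carriers. The SD of the average was 0.067 with HFr and 0.31 with chow, and without chow replicates 1 and 3 it was 0.13 over the remaining 3. This average is a description of chosen genes and was not tested.

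Markers of several cell types moved with this range among the chow animals. Chow replicate 1 had the lowest summed hepatocyte markers of the 10 animals, at 19692 normalized counts. It also had the highest summed stellate cell and fibroblast, endothelial and cholangiocyte markers, at 914, 430.4 and 32.4. The endothelial sums of chow replicates 4 and 5 and HFr replicate 4 were close to its own, at 428.7, 428.1 and 427.9. The other lists did not show this: in chow replicate 1 the lymphocyte markers had their lowest sum of the 10 animals, at 30.4. Its macrophage and blood cell sums, at 87.6 and 111, were the third lowest. Chow replicate 3 had the highest summed hepatocyte markers, at 42336, and the lowest stellate cell and endothelial sums, at 217 and 242. Its cholangiocyte, lymphocyte, macrophage and blood cell sums, at 23.1, 47.0, 102 and 137, were neither the lowest nor the highest. The positive acute phase list shares FGA, FGB and FGG with the hepatocyte list, so its sum is not a separate observation. Of its tested genes, CRP, FGA and FGG were lowest in an HFr animal, at 146, 1333 and 640, and the others in a chow animal. Its sum was lowest in chow replicate 1, at 5644 beside 5738 in the lowest HFr animal, and highest in chow replicate 3, at 21852. By contrast, the summed transcription regulators of carrier genes, described below, were highest in chow replicate 1, at 382, and stood at 313 in chow replicate 3. The part of cell makeup in the carrier levels was not tested. With both of these chow animals left out, the 9 log2 fold changes kept their signs and 0 passed an unadjusted p of 0.05 in edgeR. As they were the lowest and the highest animal in the carrier average, their removals can offset each other. Without chow replicate 1 alone, HPX and GC fell below 0 (-0.061 and -0.054). Without chow replicate 3 alone, RBP4 rose above 0 (0.011).

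**Figure D5:**
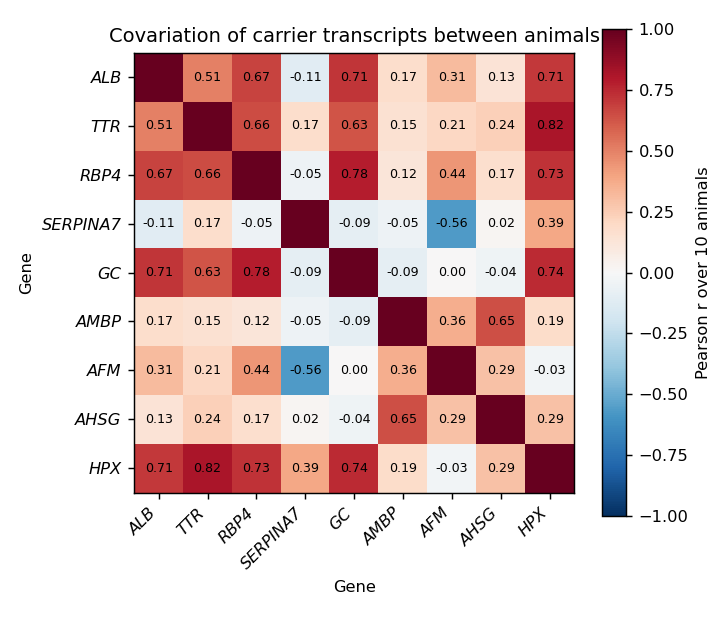
Pearson correlation over the 10 animals of log2(normalized count + 1) for each pair of the 9 tested carriers, with the value printed in each cell and both axes listing the genes. TTR and HPX have the highest value, 0.82, and SERPINA7 and AFM the lowest, -0.56.

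The carriers did not vary as a single block between animals. Of the 36 pairs of tested carriers, 28 had a correlation above 0 and 11 above 0.5, with a median of 0.22 over 10 animals that share libraries and scaling. ALB, TTR, RBP4, GC and HPX all correlated with each other above 0.5, from 0.51 for ALB with TTR to 0.82 for TTR with HPX. AMBP and AHSG formed the other pair above 0.5, at 0.65. SERPINA7 had no value above 0.39 with any other carrier and AFM none above 0.44. Although neighbours on chromosome 7, ALB and AFM correlated at 0.31. The transcripts outside the 10 whose levels followed the average of the tested carriers most closely over the 10 animals were PLG (0.91), the plasminogen gene, PREP (0.91), IP6K3 (0.90), C8G (0.89), which encodes a complement chain of the lipocalin family, and PSMB2 (0.88), a proteasome subunit gene. None of these 5 passed an unadjusted p of 0.05 between the diets in edgeR, and their log2 fold changes lay between -0.13 and 0.029. They were picked for following an average that barely differed between diets (mean 0.0055 on HFr and -0.0055 on chow). Small diet differences therefore largely follow from that choice and are not a separate result.

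Genes that act with the carriers were described in the same way. Of 17 other plasma carriers and binding proteins, 14 were tested, 7 with a log2 fold change above 0 and 7 below, and 0 passed an unadjusted p of 0.05 in edgeR. The median log2 fold change was 0.016. The smallest p-values of this list belonged to IGFBP4, an insulin-like growth factor binding protein, at 0.52 (standard error 0.28, unadjusted p = 0.0867 from edgeR), and TF, transferrin, at 0.37 (standard error 0.24, unadjusted p = 0.155 from edgeR). TF stood between 5391 and 6123 normalized counts in the HFr animals and between 3273 and 6054 in the chow animals. HP, SELENOP and APOM were not analysed here.

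For retinoid handling, 10 of 13 genes were tested, 3 above and 7 below 0, with a median of -0.15 and 0 under 0.05. ALDH1A1, a retinal dehydrogenase, was at -0.38 (standard error 0.20, unadjusted p = 0.0791 from edgeR), with 513 ± 61.9 normalized counts under HFr and 668 ± 149 under chow (SD, n = 5 each). BCO1, which cleaves beta-carotene to retinal, was at 0.81 (standard error 0.46, unadjusted p = 0.1003 from edgeR), with 4 to 41 estimated counts per animal. LRAT, which esterifies retinol for storage in stellate cells, and the RBP4 receptor STRA6 were at 0 in all 10 animals. Yet 7 of the 8 stellate cell and fibroblast markers had enough counts to be tested. A count of 0 at an annotated transcript does not show that the gene is silent in these livers, and its cause was not tested. For thyroid hormone handling, 4 of 9 genes were tested, with THRSP at -0.90 (standard error 0.79) and ME1 at 0.14 (standard error 0.36), and for vitamin D handling 2 of 7, CYP27A1 at -0.20 (standard error 0.18) and DHCR7 at 0.22 (standard error 0.38). None of these 6 passed an unadjusted p of 0.05 in edgeR.

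For the clearance of heme and hemoglobin, 5 of 8 genes were tested, 4 above and 1 below 0, and 0 passed an unadjusted p of 0.05 in edgeR. BLVRB, a biliverdin reductase, was at -0.18 (standard error 0.23) and the hemopexin receptor gene LRP1 at 0.13 (standard error 0.18). Of 14 transcription regulators known from carrier genes, 8 were tested, 3 above and 5 below 0, again with 0 under 0.05. HNF4A, a nuclear receptor that maintains hepatocyte gene expression, was among those tested, and the smallest p-values belonged to FOXA3 at 0.26 (standard error 0.20) and PROX1 at -0.34 (standard error 0.33). ZHX2 and ZBTB20, both repressors of AFP in mouse liver, had at most 9 and 2 estimated counts per animal and were not tested. Of 13 positive acute phase genes, 10 were tested, 7 above and 3 below 0, with a median of 0.17 and 0 under 0.05. LBP was at 0.63 (standard error 0.59) and SAA4 at 0.34 (standard error 0.33).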

How the data were processed

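Liver biopsies of 10 animals were represented by 1 RNA-Seq library each. For the estimated counts, the authors aligned quality-filtered paired reads to ChlSab1.1 and divided them among Ensembl transcripts with the expectation-maximization step of Partek Flow (the submitters' processing notes name CASAVA 1.8 and STAR 2.5.3a). The normalized signal values deposited by the authors were TMM scaled and served in 1 alternative.

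Estimated counts were rounded, passed through filterByExpr at a minimum count of 10 and a total of at least 15, scaled with TMM (factors 0.608 to 1.48) and compared with edgeR's quasi-likelihood test (edgeR 4.0.16, R 4.3.3), with diet as the only term. The Benjamini-Hochberg adjustment covered each tested transcript, and 0.05 was the threshold. The equal-variance test used in the study for normalized values was an alternative, because these are counts. The standard error is the log2 fold change divided by the square root of F. Single values were compared by exact permutation, two-sided, over the 252 assignments of animals, on log2(normalized count + 1). Ends of genes are the listed stops minus 1.

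The members and lists were chosen with earlier results of these data known. The genes named are the 10 carriers, in each list those with an unadjusted p under 0.05 or otherwise the pair with the smallest p, and the 5 transcripts most like the carriers' average. Others were named after their values were seen. Marker lists of cell types were written from general knowledge. Transcript lengths were not used, so shares, ranks and ratios between genes are of counts and not of molecules. The procedure was tested on simulated data. The alternatives were DESeq2 1.42.0, limma 3.58.1, voom, other normalizations and filters, sums by gene, a replicate block, fits without mitochondrial transcripts or with their percent as a covariate, scaling without the carriers, and each animal left out.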

Additional observations from a re-analysis of the deposited data

How the results depend on the processing

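Over 25 alternatives, 217 of the 225 log2 fold changes of the 9 tested carriers kept their sign, and 1 had an unadjusted p under 0.05, that of AFM without HFr replicate 4. The signs of ALB, TTR, SERPINA7, AFM and AHSG held under all 25, but their sizes moved with the animal left out, from -0.29 to -0.053 for ALB, 0.016 to 0.24 for TTR, 0.045 to 0.35 for SERPINA7, -0.52 to -0.22 for AFM and 0.074 to 0.28 for AHSG. With each animal left out, RBP4 ranged from -0.22 to 0.011 (above 0 without chow replicate 3), AMBP from -0.21 to 0.012 (above 0 without chow replicate 2), HPX from -0.061 to 0.24 (below 0 without chow replicate 1) and GC from -0.061 to 0.20 (below 0 without HFr replicate 3, HFr replicate 5, chow replicate 1 or chow replicate 4). GC was also below 0, at -0.0077, with library size only. The number of carriers under 0.05 ranged from 0 to 1 and their median log2 fold change from -0.061 to 0.18 with each animal left out. The number of all tested transcripts under 0.05 was 341, was 124 with library size only and 756 without a filter on low counts, and ranged from 261 to 408 with each animal left out. After adjustment, 1 transcript passed with library size only and 2 with DESeq2. The cause of these moves was not tested. The number of transcripts tested was 7948 in the first fit and with library size only, and 16066 without a filter. It was 8065 to 8305 with each animal left out. The log2 ratio of RBP4 to TTR ranged from -0.37 to -0.19 with each animal left out, and the AFP difference from -0.86 to -0.42. The fit without chow replicates 1 and 3 and the AFP pseudocount of 0.1 were chosen after seeing the data.

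Same-numbered animals correlated between -0.2873 and 0.0986 in their deviations from the diet means, and 0 of the 5 HFr animals correlated best with its own number. The expression values thus gave no sign of a pairing by number. With so few animals this check cannot exclude a pairing, so a fit with a replicate block was also run. With a replicate block 0 carriers and 271 transcripts had an unadjusted p under 0.05 in edgeR. The RBP4 to TTR difference is -0.26 with or without the block by construction, since each number has 1 animal per diet. AFP had at most 16 counts per animal, and its exact permutation p ranged from 0.0159 (without chow replicate 1) to 0.222 with each animal left out.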
